A study of Mus musculus with 6 samples.

Results

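Peaks on LTR retrotransposons made up 10892 of the 134964 ChIP-seq peaks called for 3 transcription factors in mouse bone marrow-derived macrophages (BMDMs). ChIP-seq sequences the DNA that an antibody to a factor pulls down, and a peak is a stretch where that DNA is enriched. A peak was counted here when the repeat entry of its Detailed Annotation, which describes the place of the peak centre, was of class LTR. Overlapping peaks of all 6 libraries were also merged into 60856 regions, of which 5677 held an LTR peak and are called LTR loci. The cells came from the bone marrow of wild-type mice aged 8 to 12 weeks and spent 6 days in L929 supernatant, which supplies M-CSF, to differentiate. Control cells got no IL-4, the others 20 ng/ml of IL-4 over 1 h, and all were cross-linked with DSG and formaldehyde. The factors were C/EBPα, IRF8 and JUNB, each with 1 control and 1 IL-4 library, so no difference between conditions could be set against a spread between replicates and no test was run. The sources do not say how many animals went into a library, nor which of 2 library kits (Ovation Ultralow or TruSeq ChIP) served which sample. Control peaks of the 3 factors had 4 of 6 macrophage marker genes as their nearest gene (43 peaks), but also 2 of 3 B cell markers (13 peaks) and 2 of 3 hepatocyte markers (16 peaks). A nearest gene is thus no proof of cell type, and none of the peaks nearest to the macrophage markers in any library lay on an LTR.

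LTR retrotransposons are copies of retrovirus-like elements that spread through the genome by way of an RNA copy. Their long terminal repeats (LTRs) carry the element's own promoter and enhancer sequence, and most old copies survive as a single LTR that can hold binding sites for host factors. ERV1, ERVK and ERVL are named after the kind of endogenous retrovirus they derive from, and ERVL-MaLR elements (the MT, ORR1 and MLT groups) are shorter relatives of ERVL that lack retroviral genes. C/EBPα and IRF8 are lineage factors of myeloid cells, and IRF8 commonly binds with the ETS factor PU.1 at a composite of an ETS and an IRF site. JUNB is a subunit of AP-1, and IL-4 acts on macrophages through STAT6, which binds paired TTC and GAA half-sites.

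The first set of sequences shows a word of the factor inside elements whose windows often held it. All are mm10 sequence read 5′ to 3′ on the stated strand, and the capitals mark the word. In RMER15, an ERVL element, the word is the AP-1 site TGANTCA, shown at the 3 JUNB control peaks of highest score that held it.
RMER15 near Arhgef7, chr8:11767659-11767715, plus strand: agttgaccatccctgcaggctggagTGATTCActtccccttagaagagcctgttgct
RMER15 near Dot1l, chr10:80763688-80763744, plus strand: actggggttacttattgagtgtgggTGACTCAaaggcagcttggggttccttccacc
RMER15 near Iglon5, chr7:43481376-43481432, minus strand: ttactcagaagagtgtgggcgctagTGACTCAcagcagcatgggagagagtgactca
Over the whole stretch, word included, 36.8% and 45.6% of bases were equal to the first. Their JUNB control scores were 25.8, 22.6 and 21.6.

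In RLTR6C_Mm, an ERV1 element, the capitals mark the C/EBP word TTGCNNAA. The 3 copies are from C/EBPα control peaks.
RLTR6C_Mm near Dhx40, chr11:86812072-86812129, minus strand: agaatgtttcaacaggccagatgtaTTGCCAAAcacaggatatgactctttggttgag
RLTR6C_Mm near 1700030N03Rik, chr19:3083160-3083217, plus strand: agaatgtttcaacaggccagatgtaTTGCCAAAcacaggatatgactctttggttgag
RLTR6C_Mm near BC048507, chr13:67870881-67870938, minus strand: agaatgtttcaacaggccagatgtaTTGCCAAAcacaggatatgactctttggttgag
The copies were identical over these 58 bases. None of the 31-base words in the windows around those peaks was found only once in the genome, so a short read cannot be placed on one copy from its sequence alone.

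The MTA_Mm and ORR1E elements belong to ERVL-MaLR. In MTA_Mm the capitals mark an ETS-IRF composite word (GGAA, 2 bases, GAAA) at IRF8 control peaks, and in ORR1E the PU.1-type word GAGGAAGT.
MTA_Mm near Rac1, chr5:143532234-143532293, plus strand: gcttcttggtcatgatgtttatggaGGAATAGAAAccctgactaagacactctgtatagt
MTA_Mm near Tspan33, chr6:29702356-29702415, minus strand: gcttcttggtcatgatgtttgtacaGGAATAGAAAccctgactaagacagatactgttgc
MTA_Mm near Camk2d, chr3:126673187-126673246, minus strand: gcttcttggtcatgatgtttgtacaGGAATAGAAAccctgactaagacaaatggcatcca
ORR1E near Atp10a, chr7:58859138-58859195, minus strand: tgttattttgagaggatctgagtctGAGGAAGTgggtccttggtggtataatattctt
ORR1E near 1700016L21Rik, chr1:80454184-80454241, minus strand: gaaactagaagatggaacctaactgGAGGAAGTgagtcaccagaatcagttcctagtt
ORR1E near Npr3, chr15:11716416-11716473, minus strand: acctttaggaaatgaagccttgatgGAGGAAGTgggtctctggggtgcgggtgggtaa
The MTA_Mm copies carried the same 10 letters at the word, with 81.7% of bases equal over 60, word included. The ORR1E stretches shared the word, and over the whole stretch 39.7% to 43.1% of bases. The internal part of an IAP-type element, IAPLTR3-int of the ERVK family, carried an ISRE-like word (GAAA, 2 bases, GAAA) under 2 of the strongest IRF8 peaks.
IAPLTR3-int near Slc22a8, chr19:8518369-8518428, plus strand: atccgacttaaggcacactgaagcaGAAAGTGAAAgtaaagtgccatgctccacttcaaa
IAPLTR3-int near Vmn2r83, chr10:79417208-79417267, plus strand: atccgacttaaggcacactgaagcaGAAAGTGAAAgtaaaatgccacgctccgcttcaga
The stretches were equal at 56 of 60 bases, and their IRF8 control scores were 248 and 197.

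The last set holds the STAT6-type word (TTC, 4 bases, GAA) at LTR peaks that were absent or weaker without IL-4. They are shown because the word was most frequent at such peaks.
MLT1B near 4930413G21Rik, chr7:122924337-122924396, plus strand: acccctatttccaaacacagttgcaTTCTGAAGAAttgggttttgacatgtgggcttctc
RLTR25B near Ang2, chr14:51185912-51185971, plus strand: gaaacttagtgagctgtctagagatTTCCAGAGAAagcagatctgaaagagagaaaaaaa
MLT1O near Jak2, chr19:29239698-29239757, plus strand: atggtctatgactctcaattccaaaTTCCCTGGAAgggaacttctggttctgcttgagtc
MT2B2 near Prok2, chr6:99935555-99935614, plus strand: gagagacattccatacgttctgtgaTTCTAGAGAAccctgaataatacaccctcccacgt
MLT-int near 4933417E11Rik, chr1:71982777-71982836, plus strand: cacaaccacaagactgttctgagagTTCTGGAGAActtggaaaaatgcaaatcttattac
RLTR26_Mus near Abra, chr15:42219613-42219672, plus strand: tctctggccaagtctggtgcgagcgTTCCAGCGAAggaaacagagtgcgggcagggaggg
MLT1J1 near Odf1, chr15:38245152-38245211, plus strand: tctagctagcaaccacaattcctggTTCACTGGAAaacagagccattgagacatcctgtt
These elements belong to 3 families. Each word is a match of letters and not a measured STAT6 site.

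C/EBPα peaks lay on LTRs in 1913 of 24486 control peaks (7.81%, 7.48 to 8.16) and in 1792 of 24612 IL-4 peaks (7.28%, 6.96 to 7.61). Ranges after a share are Wilson 95% intervals here and below, and they cover counting error only. IRF8 had 3287 of 37525 peaks on LTRs in control (8.76%, 8.48 to 9.05) and 3500 of 42076 after IL-4 (8.32%, 8.06 to 8.59). JUNB had 256 of 3940 (6.50%, 5.77 to 7.31) and 144 of 2325 (6.19%, 5.28 to 7.25). IRF8 thus had the highest LTR share in both conditions, and each factor's share was lower after IL-4. The intervals of the 2 conditions overlapped for all 3 factors. LTRs were the most frequent of the 3 retroelement classes in every library, since LINE peaks took 5.13% to 5.87% and SINE peaks 2.995% to 3.47%.

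**Figure D1:**
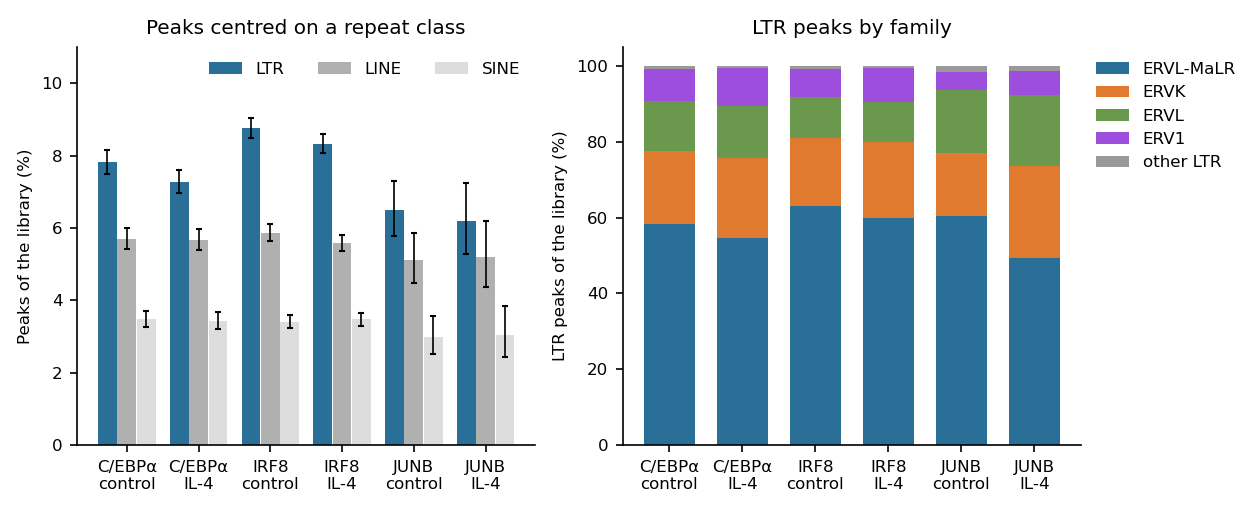
Left, share of each library's peaks (%) centred on an LTR, LINE or SINE, with Wilson 95% intervals. Right, the LTR peaks of each library by family (%). LTR shares run from 6.19% (JUNB, IL-4) to 8.76% (IRF8, control), and the ERVL-MaLR part is smaller after IL-4 for each factor.

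ERVL-MaLR elements held most LTR peaks in 5 of the 6 libraries and 49.3% of those of JUNB after IL-4. Over all libraries the labels counted 6487 ERVL-MaLR, 2112 ERVK, 1301 ERVL and 920 ERV1 peaks, and the remaining entries were Gypsy (36), unresolved LTR (12) and families with a question mark in the family field (14, 6 and 4). For C/EBPα the ERVL-MaLR share of LTR peaks was 58.3% in control (56.1 to 60.5) and 54.6% after IL-4 (52.3 to 56.9). For IRF8 it was 63.0% (61.4 to 64.7) and 59.8% (58.2 to 61.4), and for JUNB 60.5% (54.4 to 66.3) and 49.3% (41.3 to 57.4). The share was lower after IL-4 in all 3 factors, with overlapping intervals for each. The shares of ERVK and ERV1 went the other way, ERVK from 19.3% to 21.0% in C/EBPα, 17.9% to 20.0% in IRF8 and 16.4% to 24.3% in JUNB. ERV1, the family of the murine leukemia virus and VL30 LTRs, went from 8.52% to 10.04%, from 7.36% to 8.97% and from 4.69% to 6.25%. In counts, IRF8 peaks on ERV1 went from 242 to 314 and those on ERVK from 589 to 701, while ERVL-MaLR stayed at 2072 and 2094. JUNB peaks were fewer after IL-4 in each of these families, 35 against 42 on ERVK, 9 against 12 on ERV1 and 71 against 155 on ERVL-MaLR.

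Taken as a whole, LTR peaks had a slightly lower median score than other peaks, though not in each family. The deposited score has no stated unit and the depth is unknown, so it is read here mainly within a library. The median score of LTR and other peaks was 10.4 and 11.2 for C/EBPα in control, 9.99 and 10.3 for IRF8, and 7.86 and 7.88 for JUNB. After IL-4 the pairs were 11.1 and 11.2, 9.43 and 9.62, and 5.72 and 6.26. Of the LTR peaks of a library, 6.70% to 9.09% stood in the top 10% of its scores. ERVK had the lowest median score of the 4 families for IRF8, 8.04 in control and 7.41 after IL-4. The ERVL-MaLR medians, 10.8 and 10.2, lay above those of the IRF8 peaks outside LTRs. For C/EBPα the ERV1 and ERVL peaks had the higher medians, 12.9 and 12.8 in control, above 9.26 for ERVK and 10.2 for ERVL-MaLR. Both also lay above the 11.2 of C/EBPα control peaks outside LTRs.

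All 10892 LTR peaks were annotated as intronic or intergenic. They are therefore compared here with the other intronic or intergenic peaks alone, a comparison chosen after the data were seen. In control, 24.99% of C/EBPα and 23.0% of IRF8 LTR peaks lay within 10 kb of a start site, against 27.7% and 27.04% of those others. For JUNB the values were 26.6% on LTRs and 22.3% elsewhere. The intronic part of the control LTR peaks was 38.2% for C/EBPα, 37.1% with IRF8 and 32.03% with JUNB, below the 53.1%, 53.04% and 48.2% of the other intronic or intergenic peaks. The repetitive sequence itself bears on what could be called. On average 90.6% of the 31-base words in the 200 bp around a C/EBPα control LTR peak were found once in mm10, against 97.4% at other peaks. Families differed, with 95.3% in ERVL-MaLR, 97.3% in ERVL, 84.3% in ERVK and 61.5% in ERV1. How reads with several possible places were handled is not given in the sources used here, so peaks on young ERV1 and ERVK copies may share reads among copies.

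A few elements held much of the LTR binding. Of 451 element names with a peak, 53 had at least 20 loci, and the 10 most frequent names held 4275 peaks (39.2%). MTD, an ERVL-MaLR LTR, led for C/EBPα (173 peaks in control, 153 after IL-4) and IRF8 (396 and 376), and with 21 control peaks also for JUNB. MTC followed with 138 and 114 C/EBPα peaks and 217 and 213 IRF8 peaks. ORR1E had 109 and 76 C/EBPα peaks and 236 and 239 IRF8 peaks, and ORR1F 70 and 64, and 124 and 141. ORR1D2 had 57 and 36 C/EBPα peaks and 100 and 110 IRF8 peaks. These 5 elements were frequent under both lineage factors, and MTE2a (75 and 77) completed the first 6 of IRF8. For JUNB the order was different. RMER15 had 17 peaks in control and 13 after IL-4, ORR1F 19 and 6, MTC 10 and 5, ORR1E 10 and 1, MTEa 7 and 2, and MTB 4 and 5. RLTR19 (ERVK) had 5 and 4. RMER15 was the only element of these with at least 10 JUNB peaks after IL-4.

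RMER15 had the most JUNB peaks among elements with at least 20 loci and an over 3-fold lean to JUNB over another factor in control. It took 6.64% of JUNB control LTR peaks (4.19 to 10.4), 3.35% of those of C/EBPα (64 peaks) and 1.73% of those of IRF8 (57 peaks, 1.34 to 2.24). After IL-4 the shares were 9.03%, 2.90% and 1.80%, so the order was the same in both conditions. By ratio, other elements leaned more, on few JUNB peaks. MLT1L had 3 in control (3.74-fold over C/EBPα and 7.70-fold over IRF8 in share). RLTR19, with 7 loci, took 1.95% of JUNB, 0.31% of C/EBPα and 0.18% of IRF8 control LTR peaks. In all, 22 elements with at least 20 loci differed over 3-fold in share between 2 factors in control, and 15 of these had no JUNB peak there. With 256 JUNB peaks, a count of 0 allows a share of up to 1.17%, so most of these zeros could not be told from the shares of the other factors. The 7 that differed in this way between C/EBPα and IRF8 rest on lists with more LTR peaks. C/EBPα had the higher share on RMER19B (43 peaks against 24 for IRF8, 3.08-fold in share), RLTR6C_Mm (27 against 15, 3.09-fold) and MLT1F2 (16 against 9, 3.06-fold). IRF8 had it on RLTR4_Mm, the LTR of a murine leukemia virus-type element (22 against 1, 12.8-fold), RMER10B (16 against 1, 9.31-fold), RLTR13B1 (13 against 1, 7.57-fold) and RMER10A (25 against 2). After IL-4 the leans had the same sign, and RLTR4_Mm then had 32 IRF8 peaks and no C/EBPα peak. The mean share of 31-base words found once was 3.8% on RLTR6C_Mm, 3.3% on RLTR4_Mm and 27.1% on RLTR13B1, so their peaks are not independent counts. For MLT1F2 the intervals overlapped (0.516 to 1.354 for C/EBPα and 0.144 to 0.520 for IRF8). Those of RLTR13B1 overlapped too (0.2313 to 0.6755 for IRF8 and 0.00923 to 0.2955 for C/EBPα).

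**Figure D2:**
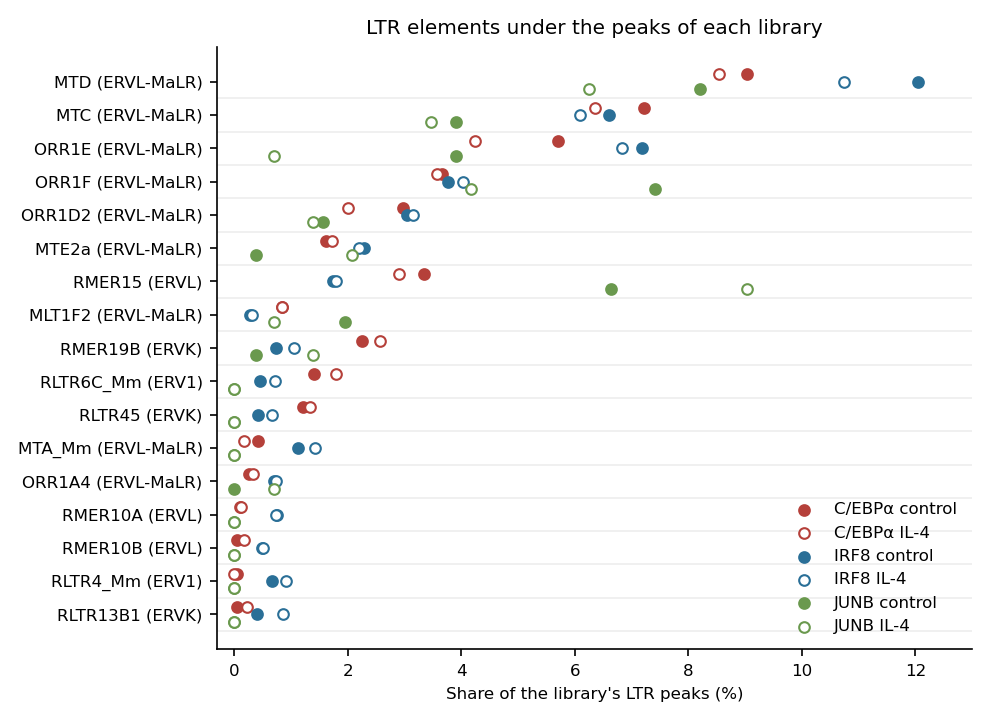
Share of each library's LTR peaks (%) on named elements, with filled circles for control and open circles for IL-4. MTD is the leading element for C/EBPα and IRF8, RMER15 stands out for JUNB (6.64% and 9.03%), and the lower elements are nearly without C/EBPα or JUNB peaks.

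Some elements had peaks at many loci. RLTR6_Mm, the LTR of VL30 elements, had 34 loci and 34 C/EBPα peaks in each condition, none of them in 1 condition alone. The median C/EBPα score there was 23.7 in control and 30.1 after IL-4. On RLTR6_Mm there were 31 and 30 IRF8 peaks, with median scores of 9.35 and 17.3. The mean share of 31-base words found once was 3.89% at these C/EBPα peaks, so the copies are not independent and may hold each other's reads. RLTR13B1 had 13 IRF8 peaks in control and 30 after IL-4, of which 19 overlapped no control peak, at a median score of 7.50 and 6.34. A mean of 25.8% of 31-base words was found once there. RLTR4_Mm had 22 and 32, with 11 of the latter not in control and 2.09% of 31-base words found once. Over all IRF8 IL-4 peaks 30.4% overlapped no control peak, and 29.8% of those on LTRs, so RLTR4_Mm lay near that background. For C/EBPα the share of all peaks in 1 condition alone was 21.4% in control and 22.0% after IL-4.

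Elements differed in the word that their peak windows held. All windows are the 200 bp around a peak centre, both strands were searched, and the windows of both conditions are pooled here, so a locus called in both counts once for each. The AP-1 word was in 26 of 30 RMER15 windows of JUNB (86.7%), against 41.4% of those of C/EBPα and 32.5% of those of IRF8. ORR1F held it in 15 of 25 JUNB windows. The C/EBP word was in 59 of 59 RLTR6C_Mm windows of C/EBPα and in 40 of 40 of IRF8, as the identical copies printed above would give. RLTR45 (ERVK) held it in 83.0% of C/EBPα and 40.5% of IRF8 windows.

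IRF8 windows on several MT elements often held the ETS-IRF word and those on most ORR1 elements the PU.1-type word. The ETS-IRF word, chosen after the first counts of words had been seen, was in 69.0% of MTA_Mm, 66.3% of MTB and 31.9% of MTD windows. The PU.1-type word was in 63.3% of ORR1A4, 63.1% of ORR1B2, 55.2% of ORR1B1, 58.3% of ORR1C2, 43.8% of ORR1E and 39.5% of ORR1D2 windows. Some elements of both groups went the other way. On MTEb the PU.1-type word was in 26.5% of windows and the ETS-IRF word in 13.3%, on MTE2b in 21.4% and 15.2%, on MTEa in 17.5% and 12.4%, and on ORR1G in 13.5% and 16.2%. IAPLTR3-int held the ISRE-like word in 10 of 38 windows (26.3%), and the other 5 words in none, which allows a share of up to 7.89% for each. Over whole lists, the ETS-IRF word stood in 18.6% of IRF8 control LTR windows and 14.6% of other windows (14.97% of all), and the PU.1-type word in 19.7% and 12.9% (13.5% of all). The other words were a little less frequent at LTRs. The C/EBP word was in 30.8% of C/EBPα control LTR windows and 34.6% of others (34.3% of all), AP-1 in 52.0% of JUNB control LTR windows and 55.5% of others (55.3% of all), and the ISRE-like word in 7.88% and 9.87% of IRF8 windows (9.70% of all). Words can overlap, and the pair of ISRE-like and ETS-IRF words was in 1.79% of IRF8 control LTR windows.

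**Figure D3:**
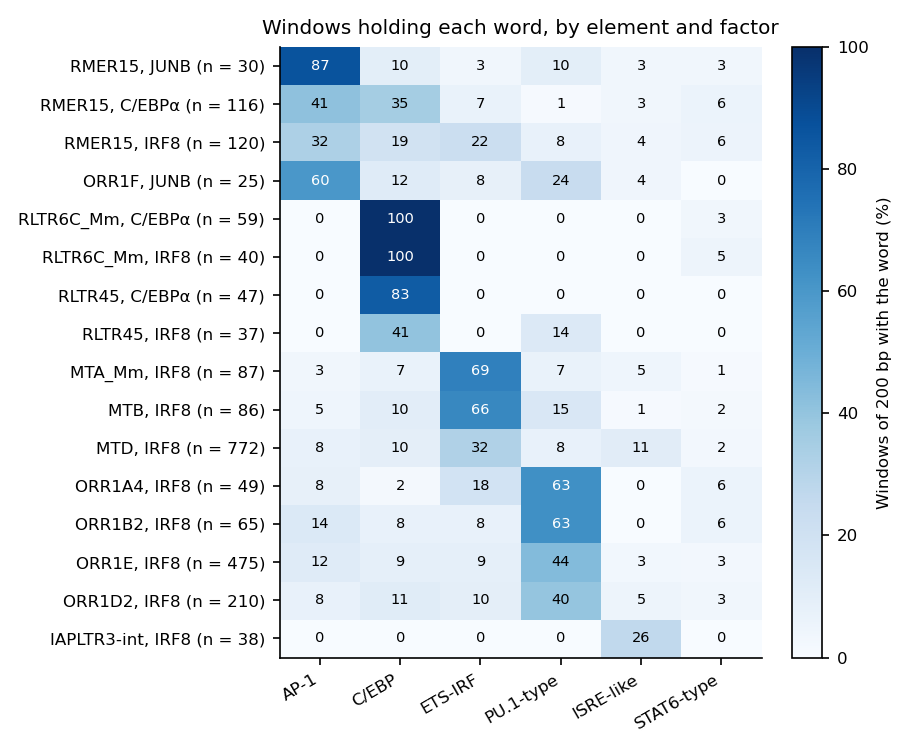
Share (%) of 200 bp peak windows of an element that hold each word, for elements and factors with n windows over both conditions. RMER15 windows of JUNB hold AP-1, RLTR6C_Mm and RLTR45 hold C/EBP, MTA_Mm and MTB hold ETS-IRF, and the ORR1 elements shown hold the PU.1-type word.

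Loci were shared among the factors to different extents. Of the 5677 LTR loci, 2874 (50.6%) had only IRF8 peaks, 1608 (28.3%) had C/EBPα and IRF8, and 770 (13.6%) had C/EBPα alone. All 3 factors were found at 307 (5.41%), IRF8 with JUNB at 68, JUNB alone at 31 and C/EBPα with JUNB at 19. All 6 libraries had a peak at 91 loci (1.60%). In control, 62.4% of C/EBPα LTR peaks overlapped an IRF8 peak (60.2 to 64.6), against 57.7% of other C/EBPα peaks. ERVK was the exception with 50.4% (45.3 to 55.5), below 66.9% in ERVL-MaLR, 65.6% in ERV1 and 58.0% in ERVL. JUNB LTR peaks overlapped an IRF8 peak in 84.0% of cases and other JUNB peaks in 80.6%.

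The loci with peaks in all 6 libraries and the highest summed score ranks were on 5 elements. LTR33A_ near 4933429O19Rik (chr14:48896223-48896621) scored 135.0 and 154.5 for C/EBPα (control, then IL-4), 65.3 and 72.1 for IRF8, and 16.0 and 11.2 for JUNB. An MTD near Slco3a1 (chr7:74683913-74684410) scored 33.5 and 28.6, 212 and 229.9, and 23.9 and 12.5. An ORR1F near Cdk14 (chr5:5419185-5420475) scored 27.9 and 22.5, 53.0 and 81.2, and 15.7 and 18.4. Scores of different antibodies have no common scale, so only the pairs of conditions are read here. RLTR33 near Aida (chr1:183299057-183299641) scored 105 and 113 with C/EBPα, 13 and 12.9 with IRF8, and 50.9 and 40.7 with JUNB, the highest JUNB scores on any LTR. The fifth was a MER4B-int near E230025N22Rik, with 50.9 and 60.1, 44.2 and 35.8, and 19.4 and 12.1.

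The strongest LTR peaks of C/EBPα and IRF8 had an overlapping peak in the other condition at a like score. For C/EBPα they included RMER19B near Ptgr2 (151 in control, 158 after IL-4) and MLT1H2 near Stim2 (149.8 and 136). MTD near Lyrm4 scored 143 and 141, and MER31B near Crygb 121 and 172. For IRF8 they were IAPLTR3-int near Slc22a8 (248 and 247), IAPLTR3-int near Slc22a27 (245 and 259), IAPLTR3-int near Megf9 (252.0 and 256.5), MLT1G1 near Galnt15 (245.8 and 258.5) and MTC near Echdc3 (216 and 254.5). IAPLTR3-int thus held 3 of these 5, each over 50 kb from the start site of the named gene. The highest IRF8 score of an ERVK peak was 247.7 in control and 256.5 after IL-4. The control score near Megf9 and the IL-4 score near Slc22a27 lie above these, so they are not of peaks counted as ERVK. For JUNB the strongest LTR peaks were RLTR33, an ORR1A1 near Fam171a1 (29.1 and 23.3), RMER15 near Arhgef7 (25.8 in control only) and RMER12C near Zfy1 (13.9 and 19.3).

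A slightly smaller share of LTR peaks than of other peaks was found again after IL-4. Of control C/EBPα LTR peaks, 1438 of 1913 overlapped an IL-4 peak (75.2%, 73.2 to 77.1), against 78.9% of others. Of control IRF8 LTR peaks, 2478 of 3287 did (75.4%, 73.9 to 76.8), again against 78.9%. Of control JUNB LTR peaks, 86 of 256 did (33.6%, 28.1 to 39.6), against 35.9%. The control-only LTR peaks numbered 475, 809 and 170 for C/EBPα, IRF8 and JUNB, that is 24.8%, 24.6% and 66.4%, and the background over all control peaks of each list was 21.4%, 21.4% and 64.2%. The IL-4-only LTR peaks numbered 394, 1043 and 61, that is 22.0%, 29.8% and 42.4%, beside a background of 22.0%, 30.4% and 39.2%. Loss at LTRs was thus slightly above background in the control lists and gain was near it. Peaks called in 1 condition alone were weak, with median scores of 5.72 for C/EBPα control, 5.66 for IRF8 control and 4.99 for IRF8 after IL-4, against 14.2, 13.4 and 14.4 for LTR peaks found in both.

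The families differed in this. After IL-4, 59.6% of IRF8 peaks on ERVK and 59.9% of those on ERV1 overlapped a control peak, against 74.3% on ERVL-MaLR and 74.8% on ERVL. The same peaks sat in more repetitive sequence. In IRF8 IL-4-only LTR peaks a mean of 78.1% of 31-base words was found once, against 89.2% in those shared, and the part of windows with under 50% such words was 19.4% and 7.77%. Whether sequence copies bear on this gain was not tested. JUNB retention in control was 28.4% on ERVL-MaLR, 42.9% on ERVK and 48.8% on ERVL, from 155, 42 and 43 peaks.

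Where an LTR peak was found in both conditions its score was near that of control for C/EBPα and IRF8 and mostly lower for JUNB as deposited. For JUNB 27.9% of pairs scored higher after IL-4, and 43.0% (33.1 to 53.6) did once scores were divided by the median of the library. The median log2 ratio of scores, IL-4 over control, was -0.03 over 1430 C/EBPα pairs (quartiles -0.43 and 0.38), 0.03 over 2456 IRF8 pairs and -0.53 over 86 JUNB pairs. Other peaks gave 0.09 for IRF8 and -0.55 for JUNB, and for C/EBPα a value between -0.01 and 0. At least 2-fold higher scores were found at 108 C/EBPα LTR pairs (7.55%, background 7.72% of all pairs), 267 IRF8 pairs (10.9%, background 11.3%) and 3 JUNB pairs (3.49%, background 2.99%). At least 2-fold lower scores were found at 112 C/EBPα pairs (7.83%, background 6.56%), 214 IRF8 pairs (8.71%, background 7.96%) and 28 JUNB pairs (32.6%, background 29.9%). The LTR shares were thus near the background for each factor. By family, ERV1 had the highest medians, 0.15 for C/EBPα and 0.24 for IRF8, and ERVL-MaLR the lowest, -0.09 and -0.01.

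The STAT6-type word separated the LTR peaks by their change. In C/EBPα it was in 1.47% of control-only LTR windows (7 of 475), 6.37% of shared windows (89 of 1398 IL-4 peaks) and 21.1% of IL-4-only windows (83 of 394, 17.3 to 25.4). In IRF8 it was in 2.22% (18 of 809), 5.94% (146 of 2457) and 11.4% (119 of 1043, 9.62 to 13.5). In JUNB it was in 2.94% (5 of 170), 3.61% (3 of 83) and 18.03% (11 of 61, 10.4 to 29.5). The IL-4-only intervals lay above the control-only ones in each factor. The shared windows lay between in C/EBPα and IRF8, while in JUNB, with few windows, those taken at the control peaks gave 2.33% (2 of 86), below the control-only share. Other peaks had the same order with 3.62%, 7.53% and 20.0% for C/EBPα and 4.12%, 7.16% and 11.9% for IRF8, so the pattern was not particular to LTRs, and control-only LTR windows had the lower share. Over all windows of a list the word was in 6.45% of C/EBPα, 6.05% of IRF8 and 6.27% of JUNB control windows.

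Among pairs, LTR peaks with the word mostly scored higher after IL-4. For C/EBPα, the 89 pairs with the word had a median log2 ratio of 0.55 (quartiles 0.04 and 1.13), 29 (32.6%) were at least 2-fold higher and none was 2-fold lower, which allows a share of up to 3.37%. The 1341 pairs without it had a median of -0.06, with 5.89% higher and 8.35% lower. For IRF8, the 133 pairs with the word had a median of 0.45, 38 (28.6%) higher and 8 (6.02%) lower, and the 2323 without it a median of 0.01, with 9.86% and 8.87%. JUNB had only 2 pairs with the word. Any higher score after IL-4 was found at 78.7% of C/EBPα and 70.7% of IRF8 pairs with the word. Pairs outside LTRs were not split by the word, so this difference is not shown to be particular to LTRs.

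**Figure D4:**
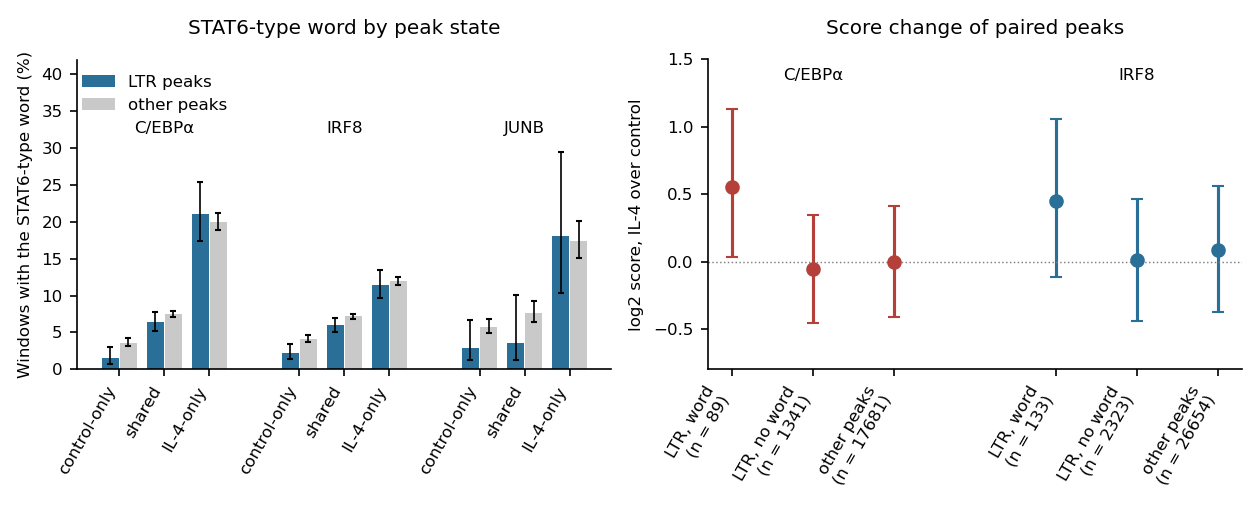
Left, share (%) of 200 bp windows holding the STAT6-type word by peak state, with Wilson 95% intervals, for LTR and other peaks. Right, median log2 ratio of score, IL-4 over control, with quartiles, for pairs with and without the word. LTR peaks with the word have medians of 0.55 (C/EBPα) and 0.45 (IRF8).

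All 4 families held the word in IL-4-only peaks, with ERVL-MaLR lowest. For C/EBPα it was in 14.1% of IL-4-only ERVL-MaLR windows (27 of 191), 25.5% of ERVK (26 of 102), 30.4% of ERVL (17 of 56) and 28.6% of ERV1 (12 of 42). For IRF8 it was in 8.55%, 11.3%, 18.1% and 19.05%. In shared IL-4 peaks ERVL-MaLR was lowest too, in the same order 4.44%, 8.76%, 9.95% and 7.97% for C/EBPα and 4.56%, 8.85%, 9.32% and 5.85% for IRF8. For IRF8 on ERVK the states hardly differed, with intervals of 8.12 to 15.5 (IL-4-only) and 6.49 to 11.96 (shared). Over the merged loci, 365 of 5677 (6.43%) held the word, close to the 7.72% of all regions of the series. Of the 95 LTR loci with a new peak of 2 or more factors after IL-4, 37 did (38.9%, 29.8 to 49.0). Of the 85 loci that lost a peak of 2 or more factors, none did, which allows a share of up to 3.53%. These groups of loci were formed after values had been seen. The same shares at gained or lost regions outside LTRs were not computed, so they are not shown to be particular to LTRs.

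Most gains and losses at LTR loci were of 1 factor, with 428 loci gained and 513 lost in C/EBPα and 1079 and 831 in IRF8. Where both changed, the sign was mostly the same. Joint gains of C/EBPα and IRF8 were found at 80 LTR loci and joint losses at 50, while IRF8 was gained and C/EBPα lost at 25 and the reverse at 22. Such counts were not made over all regions, so the shared sign is not shown to be particular to LTR loci. Only 1 locus gained all 3 factors and none lost all 3. Among loci gained by 2 or more, MLT1D near Slc25a13 (chr6:6220542-6220931) had no C/EBPα or JUNB peak in control and scores of 11 and 9.09 after IL-4, with IRF8 at 27.3 and 67.1. LTR16B1 near Arl15 (chr13:113828517-113829448) had 12.99 for C/EBPα and 8.80 for JUNB after IL-4 alone, with IRF8 at 5.95 and 18.9. Among loci lost by 2 or more, MLTR14 near Steap3 (chr1:120202541-120202932) had C/EBPα at 10.2 and JUNB at 8.00 in control alone, and IRF8 at 165 and 121. LTR50 near P4ha2 (chr11:54155906-54156197) had C/EBPα at 12.7 and JUNB at 9.86 in control alone, and IRF8 at 25.8 and 36.3. In these 4 IRF8 was present in both conditions.

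Single peaks show the range of the differences. The IL-4-only C/EBPα LTR peaks of highest score were MLT1B near 4930413G21Rik (59.3), LTR16C near Anxa3 (36.8) and RLTR25B near Ang2 (35.98). Those of IRF8 were MLT1O upstream of Jak2, the kinase of many cytokine receptors (28.3), MT2B2 near Prok2 (27.2) and MLT-int near 4933417E11Rik (26.9), and all 3 held the STAT6-type word. Of JUNB they were ORR1A4 near Tmed3 (14.4), RMER19C near Ttc27 (9.71) and MLT1J near Dennd1a (9.52), none of which held it. The control-only peaks of highest score were weaker for C/EBPα, ORR1A2-int near Ulk1 (24.0), ORR1D1 near Adam19 (18.4) and MMVL30-int near Tmem121 (16.5). For IRF8 they were MTD near Ubxn2b (23.1), RLTR28B near Tpd52 (20.8) and ORR1B1 near Pid1 (19.8), and for JUNB RMER15 near Arhgef7 (25.8), RMER15 near Dot1l (22.6) and MLT1D near Dppa3 (17.8). No control-only peak named here held the STAT6-type word, while the AP-1 word was in all 3 of JUNB.

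Paired peaks with the highest ratio of IL-4 to control score were MLT1O near Plxnd1 (3.30 to 37.7), MT2B2 near Prok2 (6.14 to 50.2) and MTD near Hormad2 (2.24 to 16.3) for C/EBPα. For IRF8 they were RLTR25B near Ang2 (5.99 to 175), RLTR26_Mus near Abra (3.57 to 86.3) and MLT1J1 near Odf1 (3.57 to 34.2), with the word in each. For JUNB they included MTD near 2210408I21Rik (7.19 to 15.1) and MLT2B2 near Ccdc80 (6.23 to 11.5). The peaks with the lowest ratio held no such word. They were RLTR41C near Map10 (20.1 to 4.12), RMER4B near Gm5294 (16.5 to 3.57) and MER54A near Gltp (15.9 to 3.70) for C/EBPα. For IRF8 they were 2 RMER15 copies, near Tbl1xr1 (30.8 to 3.74) and Lrrc20 (23.3 to 3.69), and MER57E1 near Tmem72 (19.7 to 3.10). For JUNB they were MLT1F2 near Diras2 (16.7 to 2.30), MTEa near Eid3 (15.1 to 2.30) and ORR1F near Vsig8 (20.0 to 4.68).

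LTR25 copies lie in the cluster of ribonuclease A genes (Ang and Ear genes, the secreted angiogenin and eosinophil-associated ribonucleases) on chromosome 14. They gave a comparison of related copies that hold or lack the word at 1 aligned place. The copies also differ at other bases of the stretch. They were chosen after their values had been seen, and the copies shown are those with at least 80% of the stretch equal. An RLTR25B peak near Ang6 at chr14:43987856-43988074 (IRF8 after IL-4 alone, 4.03) and an RLTR25B near Ear5 at chr14:51172194-51172425 (IRF8 in both conditions, 3.47 and 5.45) had no such stretch, and their windows held no STAT6-type word. The copy near Ang2, named above for its IRF8 rise, is the reference. Kept and altered are meant against this copy, and no ancestral sequence was inferred. Positions are counted from 1 at the 5′ end of the printed stretch, and the capitals mark the 10 aligned letters of the word, which begin at position 26.
RLTR25B near Ang2, chr14:51185912-51185971, plus strand: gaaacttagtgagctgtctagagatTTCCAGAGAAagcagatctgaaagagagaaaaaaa
RLTR25B near Ang5, chr14:43967334-43967393, minus strand: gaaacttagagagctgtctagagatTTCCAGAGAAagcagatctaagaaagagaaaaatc
MLTR25A near Ang6, chr14:43997436-43997495, plus strand: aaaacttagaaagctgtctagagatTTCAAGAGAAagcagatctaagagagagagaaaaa
MLTR25A near Ear14, chr14:51219344-51219403, plus strand: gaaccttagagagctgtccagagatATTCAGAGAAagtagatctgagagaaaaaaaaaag
RLTR25B near Ang3, chr14:43953553-43953612, minus strand: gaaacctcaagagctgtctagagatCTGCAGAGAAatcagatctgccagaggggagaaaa
RLTR25B near Ang6, chr14:44009854-44009913, plus strand: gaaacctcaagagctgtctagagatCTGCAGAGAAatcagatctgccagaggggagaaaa
RLTR25B near Ear11, chr14:51253725-51253784, minus strand: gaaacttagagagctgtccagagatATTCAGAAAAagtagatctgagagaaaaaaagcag
The copy near Ang5 was equal at 54 of 60 bases with no change in the word, and MLTR25A near Ang6 at 53 with C29A in the spacer, so both kept the word at this place. The copy near Ear14 (50 of 60 equal) had T26A and C28T. The copies near Ang3 and RLTR25B near Ang6 (48 of 60) both had T26C and C28G, and the copy near Ear11 (48 of 60) T26A, C28T and G33A.

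The 3 copies with the word at the aligned place had peaks almost only after IL-4. Near Ang2, C/EBPα had no control peak and an IL-4 score of 35.98, IRF8 went from 5.99 to 174.6, and JUNB had a peak after IL-4 alone (4.08). Near Ang5, C/EBPα (6.67) and IRF8 (20.1) had peaks after IL-4 alone, and near Ang6 the MLTR25A copy had IRF8 (25.7) and JUNB (3.57) after IL-4 alone and no C/EBPα peak. The weak IRF8 control peak near Ang2 was the exception. The 4 copies with an altered word at that place had C/EBPα and IRF8 peaks in both conditions. Near Ang3 the scores were 33.6 and 31.5 for C/EBPα (control, then IL-4), 46.2 and 67.4 for IRF8, and 4.25 in control alone for JUNB. RLTR25B near Ang6 scored 29.95 and 30.7 for C/EBPα and 55.4 and 52.2 for IRF8. Near Ear14 the scores were 5.11 and 13.5 for C/EBPα and 25.7 and 42.2 for IRF8, and near Ear11 4.75 and 9.21, and 16.0 and 32.6. The last pair of copies thus also scored higher after IL-4. The altered copies held the STAT6-type word elsewhere, in 16 of their 17 peak windows (5 of 5 near Ang3, 4 of 4 at RLTR25B near Ang6, 4 of 4 near Ear11 and 3 of 4 near Ear14), against 8 of 8 windows of the copies with the aligned word. Counted by window, the copies thus did not separate by holding the word. None of the 31-base words around the copies near Ang3 and RLTR25B near Ang6 was found once in the genome, so their reads cannot be told apart. The lowest share found once was 77.1% around the copy near Ang2, 52.4% near Ang5, 64.7% at MLTR25A near Ang6, 44.7% near Ear14 and 70% near Ear11.

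**Figure D5:**
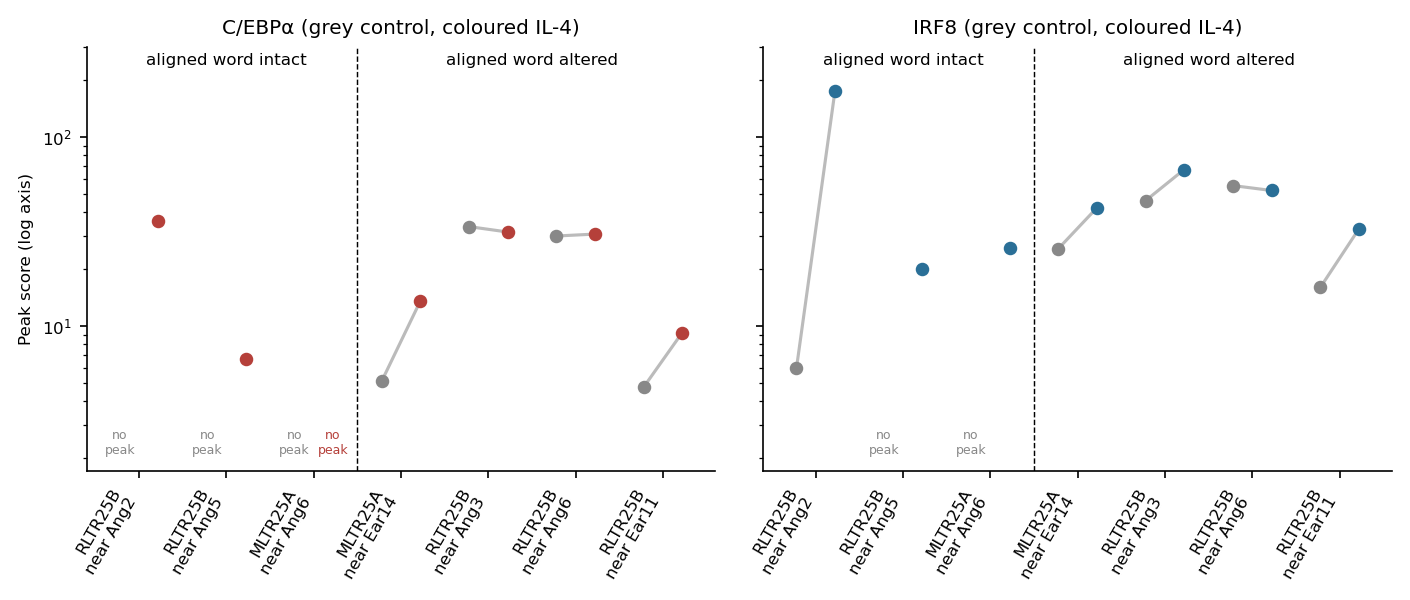
Peak score (log axis) at 7 LTR25 copies on chromosome 14 for C/EBPα and IRF8, control in grey and IL-4 in colour, with copies that keep the STAT6-type word at the aligned place left of the dashed line. Copies with the aligned word have a peak only after IL-4 (or, for IRF8 near Ang2, a weak one before), and copies with an altered word there have peaks in both, though most of their windows hold the word elsewhere.

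Other element names with at least 10 loci differed in how often they held the word, and they too were picked after the counts were seen. MLTR25C (ERVK) held it at 9 of 13 loci, and 6 of the 9 were gained by a factor after IL-4 and 1 lost. RLTR4_MM-int (ERV1), the internal part of a murine leukemia virus-type element, held it at 8 of 13, with 6 gained and none lost. ORR1A2 held it also at 8 of 13, with 1 gained and 4 lost. Of the loci without the word, 2 were gained and 1 lost on MLTR25C, 2 and 1 on RLTR4_MM-int, and 0 and 2 on ORR1A2. With so few loci, those with and without the word cannot be set apart. RLTR25B held it at 6 of 16.

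Genes near LTR loci were taken from lists of 116 genes, of which 43 had an LTR locus within 100 kb, 58 loci in all. The share of LTR peaks among peaks within 100 kb of a start site was 7.65% for C/EBPα, 8.53% in IRF8 and 6.59% in JUNB control peaks, the background for the lists. Of 20 alternative activation genes 8 had such a locus, and of their IRF8 peaks 9 of 93 were on LTRs in control (9.68%, 5.17 to 17.4) and 9 of 111 after IL-4. Of 38 interferon-stimulated and antiviral genes 10 did, with 6 of 97 IRF8 control peaks and 10 of 98 after IL-4 (10.2%, 5.64 to 17.8). Of 13 inflammasome and IL-1 family genes 7 did, with 8 of 53 IRF8 control peaks (15.1%, 7.85 to 27.0) and 6 of 50 after IL-4. Of 20 macrophage lineage genes 10 did, with 6 of 133 IRF8 control peaks (4.51%, 2.08 to 9.49). Of 14 retroelement restriction genes 2 did, of 12 genes the study names as repressed by IL-4 6 did, and of 3 named as activated 2 did. The intervals of all lists include the background of their library for IRF8.

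Of the alternative activation genes, Il4ra, the IL-4 receptor subunit, had a MurERV4-int locus at -15040 bp from its start site with an IRF8 peak after IL-4 alone (score 13). Pdcd1lg2, which encodes the PD-1 ligand PD-L2, had 3 loci, of which RLTR14-int scored 13.8 and 27.9 for C/EBPα and 19.8 and 43.5 for IRF8. Its ORR1E locus went from 32.4 to 56.9 for C/EBPα, while IRF8 at its MTC locus scored 44.2 and 49.0. At Mrc1, the mannose receptor, LTR16C had IRF8 scores of 29.0 and 11.3. Ccl17, a chemokine gene, had an ORR1E with C/EBPα (5.94) and IRF8 (6.57) in control alone. Pparg, a lipid-sensing nuclear receptor, had an MTE2a with IRF8 at 155.8 and 161.6 and a C/EBPα peak in control alone (5.90). At Ear11, MLTR11B scored 21.9 and 17.3 for C/EBPα and 111 and 107 for IRF8.

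Of the genes named as repressed, Lyz2, a lysozyme gene, had an RLTR12D with C/EBPα at 32.3 and IRF8 at 3.57 in control alone, and JUNB at 8.32 and 3.44. Lyz1 had an MTD with C/EBPα in control alone (10.7) and IRF8 at 119 and 99.0. Tlr2, a receptor for bacterial lipoproteins, had MMERVK9C_I-int with C/EBPα at 41.9 and 63.9 and IRF8 at 17.1 and 21.6. Smad3, a mediator of TGF-β signals, had an MTEa with C/EBPα at 40.01 and 37.4 and IRF8 at 47.2 and 19.9. Fos, an AP-1 subunit, had LTR16A2 with IRF8 at 16.9 and 20.7. The direction of the scores thus differed among these genes. Of the activated ones, Klf4, a transcription factor, had 4 loci within 100 kb, each with 1 peak after IL-4 alone and a score of 3.02 to 6.00, and Edn1 had 1 weak IRF8 peak in control (4.61).

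Among antiviral and inflammasome genes, Aim2, a sensor of cytosolic DNA, had 2 LTR loci with different factors. RMER19B had C/EBPα alone (24.8 and 20.5) and ORR1F had IRF8 alone (57.0 and 77.0). Isg20, an exonuclease, had an RMER13A1 with IRF8 at 41.7 and 63.6. Eif2ak2, the kinase PKR, had an MTE2a with C/EBPα at 72.3 and 65.6 and IRF8 at 9.05 and 30. Nlrp1b, an inflammasome sensor, had an RMER21A with C/EBPα at 37.1 and 29.3, IRF8 at 25.9 and 45.3 and JUNB in control alone (14.1). Usp18 had an ORR1D1 with IRF8 at 50.4 and 52.6, and Nlrc4 an MLT1J with IRF8 at 11.1 and 20.6. IRF8 scores at these 6 genes were higher after IL-4. At Ddx58, which encodes the RNA sensor RIG-I, BGLII (12.02 and 10.4) and MER57E2 (7.73 and 3.74) went the other way, as did RLTR17 at Casp4 (11.6 and 7.46) and ORR1E at Ifi204 (18.6 and 8.29, in sequence with no 31-base word found once). Gsdmd, the pore-forming gasdermin D, had an ORR1A4 with C/EBPα at 24.2 and 15.2 and IRF8 at 9.35 and 19.9. Mefv, the pyrin gene, had a RodERV21-int with C/EBPα at 16.1 and 11.6 and IRF8 after IL-4 alone (9.80). Bst2, which encodes the antiviral tetherin, had an MTB with an IRF8 peak after IL-4 alone (9.10).

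Among lineage genes, Mitf had an LTR33A with IRF8 at 25.1 and 4.62, and Batf3 an RMER5 with IRF8 at 12.6 and 29.4 and C/EBPα after IL-4 alone (14.2). Cebpa, the gene of C/EBPα itself, had an MTD with IRF8 at 17.1 and 11.4, and Batf an ORR1F with IRF8 at 28.1 and 33.1 and C/EBPα in control alone (6.42). Runx1 had an MLT1L with IRF8 at 46.5 and 41.1 and JUNB in control alone (8.54). Of the retroelement restriction genes, Morc3 had an RLTR49 with C/EBPα at 14.95 and 9.18. At any distance, the genes with the most LTR loci as nearest gene were 1700012I11Rik (11 loci, of 33 regions), Eea1 (8 of 47) and Klf4 (8 of 58). Several with 7 followed. Within 100 kb lay only 1 locus of 1700012I11Rik, 3 of Eea1 and 4 of Klf4.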

How the data were processed

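Peak tables of 6 ChIP-seq libraries (3 factors, control or IL-4) were used as the authors deposited them. Per the submitters' processing notes they were made with BWA 0.7.10, SAMtools 0.1.19, MACS2 2.0.10 and HOMER 4.2 on mm10. The study's methods state a q limit for calling and removal of blacklisted regions. The deposited columns used were the peak position, the score, whose unit is not stated (lowest value 1.30), the annotation, the nearest gene and the distance to its start site. Depth is unknown.

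Overlap meant at least 1 bp. Each control peak was paired with at most 1 IL-4 peak, taking the largest overlaps first, and scores were compared as log2 ratios with a limit of 2-fold. Words were searched on both strands in 200 bp windows of mm10, and a 31-base word counted as found once over both strands of the genome. Shares carry Wilson 95% intervals, and a count of 0 was taken to allow 3 counts. With 1 library per group no test was made.

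The members, elements, gene lists and words were chosen with earlier results of these data known. Named were the families, the 6 most frequent elements per factor, elements with at least 20 loci and an over 3-fold difference in share between 2 factors in control, the 3 highest peaks of each kind per library or factor, and genes of the lists with an LTR peak within 100 kb. Of the loci gained or lost by 2 or more factors, some were named in addition after their values had been seen, as were the LTR25 copies. Listed genes not named in the text are given by count only. A few items that the naming rule covers are not reported here. The ETS-IRF word and the count of words in mostly unique windows were also added after seeing the data.

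Scripts ran in Python 3.11.15 with pandas 2.3.3, numpy 2.4.6, numba 0.67.0, scipy 1.17.1 and matplotlib 3.10.9. The overlap, pairing and word counting were tested on simulated data, and 16 of 16 checks gave the known answers. Alternatives covered the overlap, score, list length, window, chromosomes and unique sequence.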

Additional observations from a re-analysis of the deposited data

Results flagged for a closer look

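The number of LTR peaks after IL-4 over that in control stood on different sides of 1 for the factors: 0.937 for C/EBPα (1913 and 1792 peaks), 1.06 for IRF8 (3287 and 3500) and 0.562 for JUNB (256 and 144). The counts of all peaks gave 1.005, 1.12 and 0.590. With 1 library per group the difference between factors was not tested, and depth, which can set the number of peaks called, is unknown.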

How the results depend on the processing

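Of 91 alternative values for 29 results, 58 stayed within the interval of the reported value and 33 did not. With merged regions as units, in which a region counts if any library's peak there is on an LTR, the LTR share (control, then IL-4) was 9.42% and 9.01% in C/EBPα, 10.2% and 9.65% in IRF8, and 8.97% and 8.52% in JUNB. With a score of at least 10 it was 4.82% for JUNB after IL-4. That limit gave an overlap of LTR peaks between conditions (control peaks, then IL-4 peaks) of 94.5% and 92.6% in C/EBPα. Other C/EBPα peaks gave 96.4% and 94.2%. In IRF8 it was 95.6% and 94.0%, against 96.6% and 93.6% of others. In JUNB it was 58.2% and 95.2%, the latter of 21 peaks, against 59.6% and 88.7% of others. The overlap with IRF8 was 72.8% and 73.6% for C/EBPα (66.8% and 68.4% of others) and 91.1% for JUNB in control (88.3%). Lists of equal length gave 72.0% and 75.4% for IRF8 (75.7% and 74.6% of others) and 43.8% and 44.4% for JUNB (47.5% and 47.6%). Windows with at least 50% of 31-base words found once gave 72.9% for IRF8 IL-4 peaks, against 69.7% of others. An overlap of at least 50% of the shorter peak gave 60.9% for C/EBPα with IRF8 after IL-4, against 57.6% of others. Scores divided by the library median put 57.6% of IRF8 and 43.0% of JUNB pairs higher after IL-4, against 51.7% and 27.9% as deposited. Windows of 100 bp, which hold fewer words by construction, gave 23.3% (C/EBP), 14.4% (ETS-IRF), 13.5% (PU.1-type) and 41.4% (AP-1), and for the STAT6-type word 0.421% and 14.2% of C/EBPα, 0.865% and 6.62% of IRF8 control-only and IL-4-only LTR peaks and 1.18% of JUNB control-only ones. The cause of the other changes was not tested. The order of the STAT6-type word between control-only and IL-4-only LTR peaks of C/EBPα and IRF8 was the same with the shorter window. No paired analysis was possible because each group holds 1 library and the labels give no replicate numbers.

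Limits are the single library per group, the unknown depth and score unit, and the unstated handling of reads with several places, which weighs most on ERV1 and young ERVK copies. Peaks called in 1 condition alone had low scores, so a missing peak is not shown to be an absent factor.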

Other observations

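The factor mix of LTR loci differed by family. C/EBPα alone was found at 17.5% of ERVK loci (15.4 to 19.8) and 16.1% of ERVL loci, against 11.9% of ERVL-MaLR loci (10.8 to 13.02) and 12.2% of ERV1 loci. All 3 factors were found at 6.08% of ERVL-MaLR loci (5.32 to 6.93) and 7.03% of ERVL loci, against 2.999% of ERVK loci (2.16 to 4.14) and 3.92% of ERV1 loci.

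Whether an LTR peak of C/EBPα was found again went with its score. In the lowest score decile of the control list 64 of 190 LTR peaks overlapped an IL-4 peak (33.7%, 27.3 to 40.7), against 42.1% of other peaks. The lowest decile of the IL-4 list went the other way, with 48.1% of LTR and 40.7% of other peaks overlapping a control peak. In the highest control decile all 133 LTR peaks and all 2317 others did so. On the Y chromosome, which is rich in repeats, 13 of 47 IRF8 control peaks were on LTRs (27.7%), against 8.71% on the autosomes and 9.97% on the X chromosome. Over the windows of IRF8 control LTR peaks, 289 of 635 ETS-IRF words (45.5%) and 107 of 406 C/EBP words (26.4%) lay within 20 bp of the peak centre. At other IRF8 control peaks the shares were 43.0% and 25.2%, so this was not particular to LTRs.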
